A study of Mus musculus with 46 samples.

Results

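Upper-layer chandelier cells were compared with long-projecting cells, both of them cortical GABAergic neurons, by summing their single-cell counts. Samples were taken by title: all 5 libraries titled CHC1 (80 cells) and all 9 titled LPC (136 cells). They are 14 of the 46 libraries and 216 of the 584 cells of a study of how mouse frontal cortex GABAergic neuron types differ in transcription. The 14 libraries, and no other of the 46, were on 1 flow cell. Each library pooled 13 to 16 fluorescent neurons, picked as single cells and barcoded before 2 rounds of linear RNA amplification.

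The upper chandelier cells came from female mice with Nkx2.1-CreER and the Ai14 reporter (Ai15 on the label of library CHC1-3), in which Cre was induced with tamoxifen at embryonic day 17.5. They were taken at the border of layers 1 and 2/3 in the infralimbic and prelimbic areas. Animal 13 (postnatal day 50) gave libraries CHC1-1 and CHC1-2. Animal 14 gave CHC1-3, labelled day 58, and CHC1-4 and CHC1-5, labelled day 40. The long-projecting cells came from frontal cortex of male mice with Sst-Flp, Nos1-Cre and the Ai65 reporter, which needs both recombinases. Animals 15, 16 and 17 were labelled postnatal day 28 and animal 18 day 29. All brains were labelled wild type. Sex, age, driver and reporter alleles, tamoxifen, layer and the cortical area stated therefore went with cell type and cannot be told apart from it. The types shared lane 5 only, with 1 library each. The series' design text speaks of 4 animals, whereas the labels number 18 over all 46 libraries. The labels were followed, and every n below rests on them.

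Chandelier cells are local interneurons whose axon forms rows of synapses on the axon initial segments of nearby pyramidal neurons. Neurons with both somatostatin and neuronal nitric oxide synthase are rare, send long axons to distant cortex, and hold peptides and nitric oxide besides GABA. Classical transmitter leaves small vesicles clustered at the synapse, whereas peptides are cut from precursors, packed into dense-core vesicles and released more slowly and over greater distances.

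Library totals ran from 916788 to 2339398 counts in upper chandelier cells and from 720573 to 4568242 in long-projecting cells. A total of 3 counts over a type, the least taken as a level here, was 0.426 CPM (counts per 1000000 counts) in the first and 0.143 CPM in the second. Median depth per cell was 62608 and 122095 counts. The same 16 cell barcodes served both types. Between cells of 1 library the squared difference of profiles was 1.26 to 1.65 times that of counting noise, if each count is 1 independent observation. The sources used here do not say whether the counts are reads or unique tags. Nothing below is read from single cells, and in the sums more cells with a transcript and more of it per cell cannot be told apart. Library CHC1-1 alone among the 5 held Vip (374 CPM, 0 in the others) and most of the Cnr1 (794 CPM, at most 8.79 in the others). Library CHC1-5 had summed immediate early gene levels of 8702 CPM, and LPC-2 summed oligodendrocyte marker levels of 4467 CPM. In the other LPC libraries the oligodendrocyte sum was 46.1 to 192 CPM. Counts given below without 3 libraries leave out CHC1-1, CHC1-5 and LPC-2 together.

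The driver genes followed the labels and, since their alleles were used to pick the cells, are no finding. For Nkx2-1, Cre was induced at embryonic day 17.5, so the picking did not by itself require its transcript at the ages sampled. Sst was at 3.12, 0, 0, 0.799 and 0 CPM in libraries CHC1-1 to CHC1-5 and at 1963, 2119.9 and 2707 CPM (lowest, median and highest) in the LPC libraries. Nos1 was at 4.16, 1.71, 0, 0 and 0.634 CPM and at 96.8, 148 and 208 CPM in the same order. Nkx2-1, whose locus drove the inducible Cre, was at 57.2, 88.5, 48.0, 48.7 and 108 CPM and at 2.78, 7.77 and 10.8 CPM. No library of one type reached the other for these 3 genes. Of 8 chandelier markers 7 were called higher in upper chandelier cells, the exception being Rasd1 (4.57 ± 3.82 against 2.12 ± 0.592 CPM, adjusted p = 0.47), and all 10 long-projecting markers were called higher in long-projecting cells. The chandelier markers include Nkx2-1 and the long-projecting markers Sst and Nos1, so both counts hold driver genes. Xist was at 214 to 236 CPM in the female libraries and at 0 to 0.444 CPM in the male libraries, and Eif2s3y at 0 and 21.8 to 41.3 CPM.

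Counts were summed per animal (2 against 4) and 14006 genes were tested with edgeR's quasi-likelihood test, with p-values adjusted by the Benjamini-Hochberg method over all of them. Here a gene is called at an adjusted p under 0.05. Genes without a count in 1 type, such as Rln1 and Wnt2, were tested through the other type alone. They could be called in 1 direction only, and the list counts below include them. Log2 fold changes, given with their standard errors, are upper chandelier minus long-projecting. The standard errors were derived from the test, as the absolute log2 fold change divided by the square root of its F statistic. A pair of levels with an SD is the mean over 2 upper chandelier animals against the mean over 4 long-projecting animals. Elsewhere 5 levels are those of libraries CHC1-1 to CHC1-5 in order, and 3 levels the lowest, median and highest of the 9 LPC libraries. Of the genes tested 16.4% were called. These were 1012 genes (7.23%) higher in upper chandelier cells and 1287 genes (9.19%) higher in long-projecting cells. The median log2 fold change over all genes tested was 0.0053. A single fit of all 7 cell types of the series (the 7-type fit) called 320 genes higher in upper chandelier cells and 313 in long-projecting cells, and the counts of most lists fell in it too. Its counts are given beside each list, in the order of the counts they follow. Where it called 0 of a list in 1 direction, 0 to 6 genes of that list passed an unadjusted p under 0.05 there and 1 to 5 were called by DESeq2. Among the 5243 genes with at least 50 CPM in the higher type, the abundant genes below, 31.0% were called. The lists below differ in the level of their members, so this share and the 16.4% of all genes both serve as background. The 52 listed peptide receptors, for example, summed to only 533 CPM in upper chandelier cells and 1572 CPM in long-projecting cells. In 9.48% of genes tested, no library of one type overlapped a library of the other. The plot of list counts gives the share called in each direction for lists with at least 10 members tested, other than marker and sex chromosome lists.

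**Figure D1:**
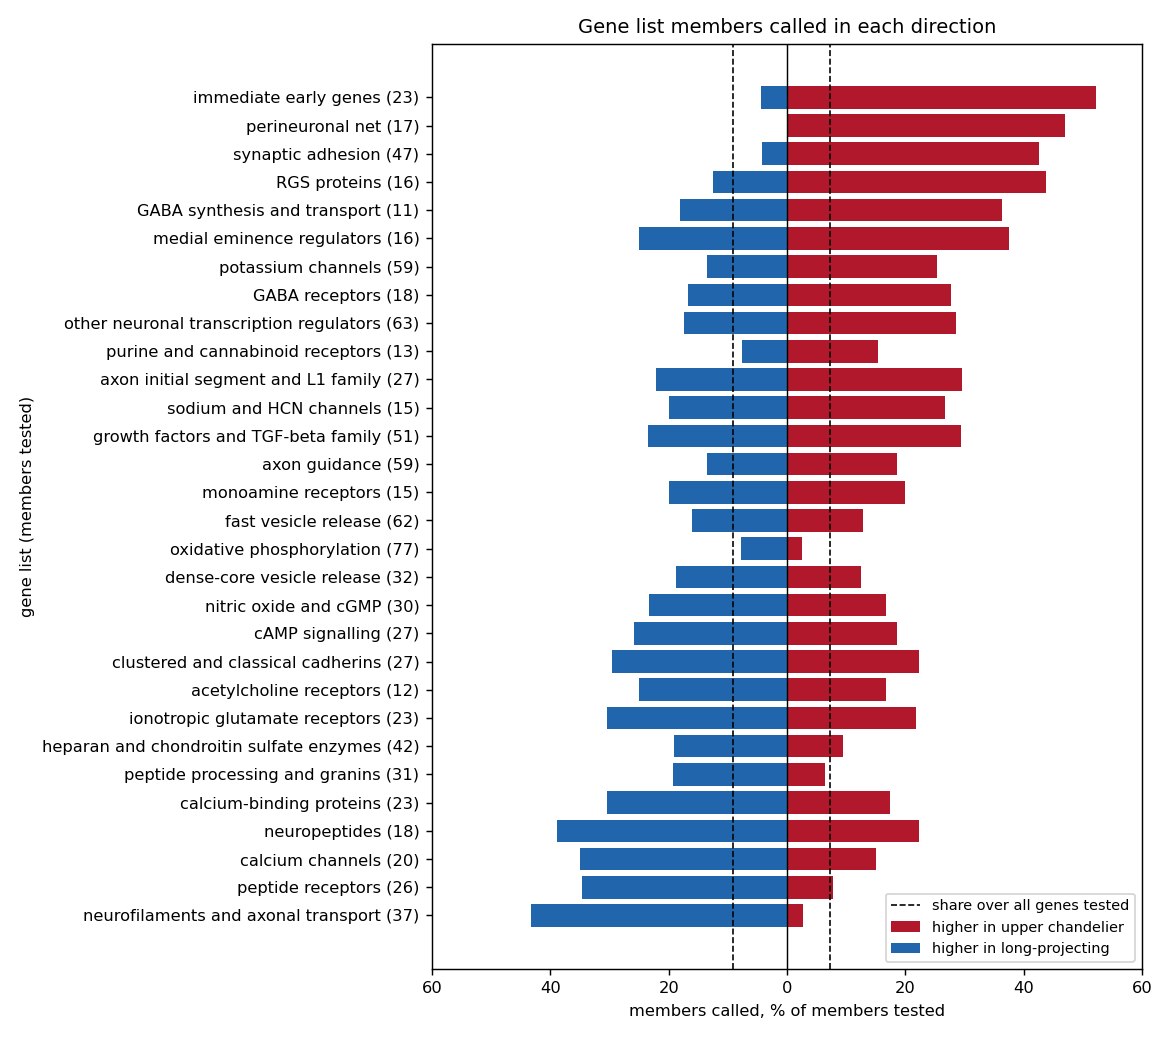
Share of the tested members of each gene list with at least 10 of them, other than marker and sex chromosome lists, that were called in edgeR's quasi-likelihood test (adjusted p under 0.05), to the left for genes higher in long-projecting cells and to the right for genes higher in upper chandelier cells. Dashed lines mark the shares over all genes tested, 9.19% and 7.23%. Among the lists plotted, neurofilament and axonal transport genes, neuropeptides, calcium channels and peptide receptors reach furthest left, and immediate early genes, perineuronal net genes, RGS proteins and synaptic adhesion genes reach furthest right.

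Peptide precursors were called in 61.1% of cases, though 3 of them, Sst, Npy and Pthlh, had been taken as markers of the types. Sst was also a driver gene of the long-projecting cells. Summed over the 58 listed neuropeptide genes, upper chandelier cells held 1363 CPM and long-projecting cells 22482 CPM. Of 18 precursors tested, 7 were called higher in long-projecting cells and 4 in upper chandelier cells, with 7 not called and a median log2 fold change of -1.49. Without 3 libraries the counts were 8 and 3, and in the 7-type fit 5 and 3.

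Npy, the precursor of neuropeptide Y, made up most of that sum. It was at 117, 163, 32.7, 56.7 and 0.634 CPM in the upper chandelier libraries and at 15621, 18127 and 22509.9 CPM in the long-projecting libraries, a 212-fold ratio of means over animals (log2 fold change -7.85 ± 0.99, adjusted p = 0.0089). Its level in upper chandelier cells differed widely between libraries, from near 0 in CHC1-5 to its highest in CHC1-2, and none came near a long-projecting library. Penk, which codes for the enkephalin precursor, was at 5.20, 0, 1.09, 0 and 4.44 CPM against 524, 876 and 1082 CPM (440.0-fold, log2 fold change -8.86 ± 0.34, adjusted p = 4.7e-07). Vgf, a secreted granin-like protein that is also cut into peptides, was at 92.5, 85.5, 125, 73.5 and 25.3 CPM against 304, 351 and 495 CPM (log2 fold change -2.40 ± 0.22, adjusted p = 8.5e-05). All 9 long-projecting libraries lay above every upper chandelier library for Penk and Vgf.

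Cort, which codes for cortistatin, a relative of somatostatin, was called higher in long-projecting cells with libraries that overlapped. It was at 28.1, 20.9, 139.6, 7.19 and 16.5 CPM against 45.4, 139 and 370.2 CPM (log2 fold change -2.52 ± 0.58, adjusted p = 0.015), and library CHC1-3 lay above 5 of the 9 long-projecting libraries. Rln1, a relaxin, had no count in upper chandelier cells and 9.12 to 50.9 CPM in long-projecting libraries, at least 64.7-fold higher against a floor of 3 counts over the type (adjusted p = 0.00071). Calca, the precursor of calcitonin gene-related peptide, named after its values were seen, also had no count in upper chandelier cells and was at 2.16, 3.92 and 12.0 CPM. Cort lost its call with animal 14 split by age (adjusted p = 0.17), without animal 13 (0.18), without animal 14 (0.1) or without LPC-6 (0.057) and Calca without animal 14 (0.051).

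Upper chandelier cells were not without peptide genes. Pthlh, which codes for parathyroid hormone-related protein, was at 463, 499, 552, 770.1 and 660.3 CPM, while 1 count was found over all 9 long-projecting libraries (adjusted p = 8.9e-08). Cck, the cholecystokinin precursor, was at 573, 243, 345, 462 and 362 CPM against 0, 5.33 and 16.3 CPM (50.6-fold, log2 fold change 5.60 ± 0.42, adjusted p = 2.4e-05). Every upper chandelier library held more of both than any long-projecting library. Crh (corticotropin-releasing hormone, 28.4 ± 24.8 against 0.486 ± 0.973 CPM) and Pnoc (the nociceptin precursor, 23.9 ± 8.50 against 0.96 ± 1.11 CPM) were also called, with adjusted p of 0.011 and 0.018, but library CHC1-2 had no Crh. Tac1, the substance P precursor, was not called: it was at 75.9 and 183 CPM in the libraries of animal 13 and at most 0.799 CPM in those of animal 14. Vip, found in 1 upper chandelier library, was not tested. Crh lost its call by DESeq2 (adjusted p = 0.17) or without animal 14 (0.15) and Pnoc without animal 14 (0.091) or without CHC1-4 (0.1).

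**Figure D2:**
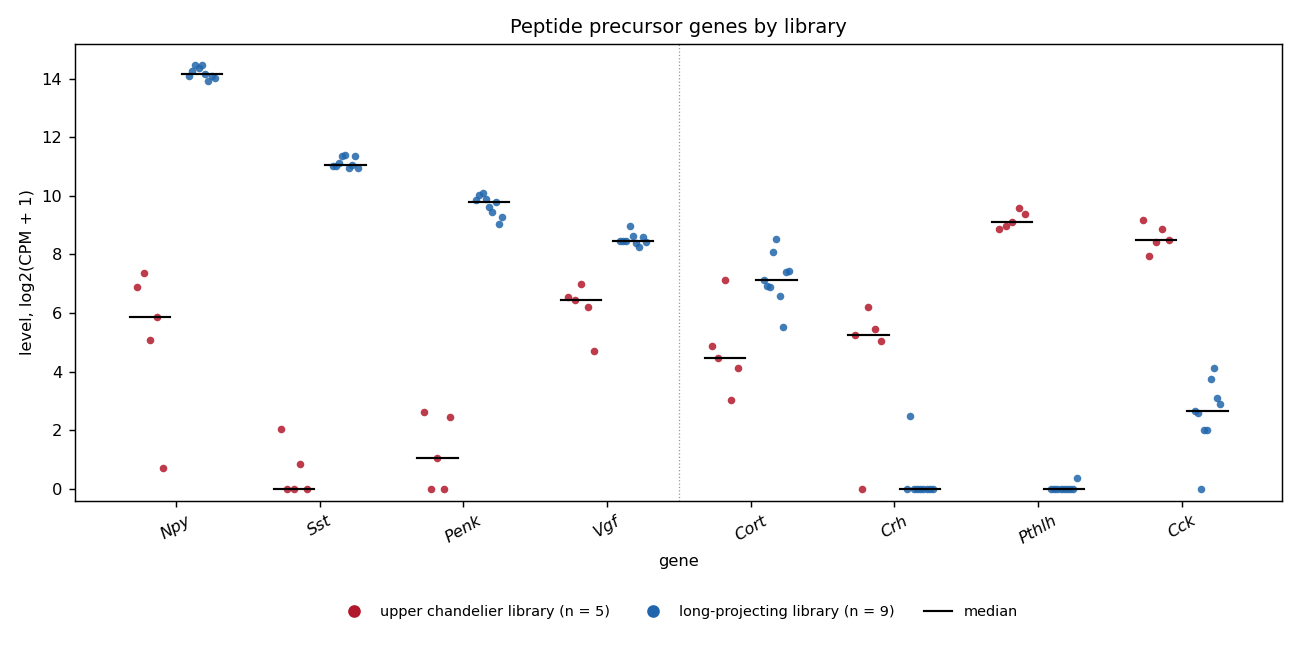
Levels of 8 peptide precursor genes in each of the 5 upper chandelier and 9 long-projecting libraries, as log2(CPM + 1), with 1 point per library and a bar at the median. Npy, Sst, Penk and Vgf are higher in every long-projecting library, Pthlh and Cck in every upper chandelier library, and the libraries of the types overlap for Cort and, through 1 upper chandelier library at 0, for Crh.

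Promoter sequence was looked up for the 11 peptide genes called, since many peptide genes are known to respond to cyclic AMP through a cyclic AMP response element. The RefSeq promoter table (GRCm38.p6, a later build than the mm9 used for the counts) held 7 of them, and Penk, Pnoc, Crh and Vgf were not found in it. The 100 bases before the transcription start are shown for the 5 of these genes with the highest levels in their higher type, with capitals marking TGACGTCA, the full element, or TGACG, its shorter core, on either strand. The full element contains the core, so each full match is also a core match.
Sst (chr16:23890845-23890944, strand -): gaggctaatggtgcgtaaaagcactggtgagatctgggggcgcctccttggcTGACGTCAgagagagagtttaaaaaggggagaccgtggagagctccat
Cort (chr4:149126764-149126863, strand -): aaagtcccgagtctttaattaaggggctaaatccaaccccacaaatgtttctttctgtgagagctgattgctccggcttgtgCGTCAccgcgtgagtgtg
Npy (chr6:49822610-49822709, strand +): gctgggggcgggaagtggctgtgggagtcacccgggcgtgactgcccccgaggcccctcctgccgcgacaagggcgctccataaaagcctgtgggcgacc
Cck (chr9:121495695-121495794, strand -): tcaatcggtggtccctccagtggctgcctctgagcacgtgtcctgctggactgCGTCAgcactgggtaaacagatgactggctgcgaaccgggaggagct
Pthlh (chr6:147264014-147264113, strand -): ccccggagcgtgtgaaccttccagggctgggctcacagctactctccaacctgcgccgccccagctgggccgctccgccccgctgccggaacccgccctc

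Sst held the full element, starting 48 bases before the start site, and 1.15% of the 32851 promoters in the table held it within the same 100 bases. Cort and Cck held the core alone, starting 18 and 47 bases before the start, and 10.5% of promoters held the core with or without the full element. Npy and Pthlh held neither in this window. Of the other 2 genes matched, Calca held the core and Rln1 did not, so the core was found at 3 of 5 genes higher in long-projecting cells and 1 of 2 higher in upper chandelier cells. The letters describe these windows only.

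Most enzymes that cut and finish peptides were not called. Of 31 processing enzymes and granins tested, 6 were called higher in long-projecting cells and 2 in upper chandelier cells (25.8%, and 3 and 0 in the 7-type fit), against 31.0% of abundant genes. Pam, the enzyme that amidates peptide ends, was at 1015, 1079, 1004, 1122 and 1210.4 CPM in upper chandelier libraries and at 2222, 3123 and 3448 CPM in long-projecting libraries (log2 fold change -1.57 ± 0.12, adjusted p = 2.2e-05), with no overlap. Pcsk5, a convertase, was 5.26-fold higher in long-projecting cells (log2 fold change -2.54 ± 0.38, adjusted p = 0.0015), and Qpct, which forms pyroglutamate at peptide ends, 6.21-fold (log2 fold change -2.75 ± 0.39, adjusted p = 0.0012). Ptprn, a dense-core vesicle membrane protein, differed modestly (log2 fold change -0.84 ± 0.18, adjusted p = 0.012). Ecel1, an endopeptidase-like membrane protein, had no count in upper chandelier cells and was at 0, 6.54 and 26.3 CPM in long-projecting libraries. Furin, a convertase of the secretory route, and Mme, the extracellular peptidase neprilysin, were the 2 genes called higher in upper chandelier cells (52.4 ± 8.56 against 10.5 ± 4.76 CPM and 18.8 ± 1.28 against 4.57 ± 0.206 CPM). Abundant members were not called, among them Scg2 (1365 ± 435 against 1118 ± 68.5 CPM), Scg5 (1058 ± 20.8 against 978 ± 109 CPM) and Cpe, the carboxypeptidase that trims precursors (639 ± 51.7 against 656 ± 57.3 CPM). Ptprn lost its call without animal 13 (adjusted p = 0.063) or without CHC1-2 (0.08), Furin without animal 14 (0.052) or without LPC-8 (0.087) and Mme without animal 13 (0.087), without animal 14 (0.067), without animal 15 (0.051), without animal 16 (0.051) or without LPC-6 (0.064).

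Genes of dense-core vesicle release were called in both directions, 6 of 32 higher in long-projecting cells and 4 in upper chandelier cells (31.2%, and 3 and 2 in the 7-type fit), close to the share of abundant genes. The long-projecting side was led by synaptotagmins, the family that holds the calcium sensors of release. Syt4 was at 165, 154, 159, 221 and 171 CPM against 359, 488 and 606 CPM (log2 fold change -1.65 ± 0.17, adjusted p = 0.00016) and Syt5 at 9.36, 6.84, 1.09, 23.2 and 6.97 CPM against 75.8, 99.6 and 135 CPM (11.2-fold, log2 fold change -3.60 ± 0.32, adjusted p = 6.3e-05). Neither overlapped between types. Syt6 (1.04 ± 1.10 against 43.2 ± 30.6 CPM), Syt11 (999 ± 39.7 against 1388 ± 221 CPM) and the SNARE protein Snap47 (209.9 ± 4.31 against 365 ± 14.5 CPM) were also called. Upper chandelier cells had more of Cadps, a priming factor of dense-core vesicles, at 776, 679.7, 915, 911 and 768 CPM against 324, 369 and 445 CPM (log2 fold change 0.95 ± 0.14, adjusted p = 0.0017). Its relative Cadps2 and the vesicle tethering protein Sytl2 were higher there too, with log2 fold changes of 1.88 ± 0.37 and 2.87 ± 0.59. For Cadps2 library CHC1-1 held 303 CPM against at most 81.0 in the other 4. Kif1a, the motor that carries these vesicles along axons, was at 377 ± 50.5 against 372 ± 43.3 CPM and not called. Without 3 libraries the counts were 7 and 2. Syt11 lost its call without animal 13 (adjusted p = 0.076), without animal 14 (0.056) or without CHC1-3 (0.051), Snap47 with animal 14 split by age (0.11), Cadps2 without animal 13 (0.078), without CHC1-1 (0.17) or without 3 libraries (0.18) and Sytl2 without animal 14 (0.13).

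Genes of fast vesicle release did not favour either type as a group. Of 62 tested, 8 were called higher in upper chandelier cells and 10 in long-projecting cells (29.0%, and 3 and 1 in the 7-type fit), near the 31.0% of abundant genes, with a median log2 fold change of -0.03. Syt1, the fast calcium sensor, was at 3627, 4051, 3768, 4384 and 4013 CPM and at 3424, 3638 and 4220.5 CPM (log2 fold change -0.02 ± 0.10, adjusted p = 0.91). Syn2 and Nsf, which tether vesicles and recycle the fusion complex, were not called either (891 ± 93.1 against 692 ± 39.6 CPM and 672 ± 22.8 against 599 ± 43.9 CPM). Within the group single members differed in opposite directions. By leave-one-out, the upper chandelier count was 4 without animal 14, 4 without library CHC1-2 and 5 without library LPC-6.

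Snap25, a core fusion protein of the plasma membrane, was at 1133, 1173, 1058, 1197 and 1380.3 CPM in upper chandelier libraries against 432, 619 and 685 CPM (log2 fold change 0.96 ± 0.12, adjusted p = 0.00064). Ppfia2, a liprin of the active zone, was 3.04-fold higher in upper chandelier cells (log2 fold change 1.47 ± 0.23, adjusted p = 0.0018). Neither overlapped between libraries of the types. Cplx1, a complexin, was called in the same direction with a log2 fold change of 0.60 ± 0.14. Cplx1 lost its call without animal 13 (adjusted p = 0.15), without CHC1-2 (0.12) or without LPC-6 (0.06).

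On the other side stood Rab3b, a vesicle GTPase. Rab3b was at 80.1, 131, 56.7, 32.8 and 34.9 CPM against 338, 543 and 626 CPM (log2 fold change -2.88 ± 0.41, adjusted p = 0.0011). Synpr, a vesicle membrane protein, was at 169, 7.91, 12.5, 6.39 and 12.0 CPM against 276, 336 and 514 CPM (log2 fold change -3.57 ± 0.54, adjusted p = 0.0018), so library CHC1-1 stood apart from the other 4. Napb, an adaptor for fusion complex recycling, was also higher in long-projecting cells (log2 fold change -1.31 ± 0.23, adjusted p = 0.004). Synpr lost its call without CHC1-2 (adjusted p = 0.12).

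**Figure D3:**
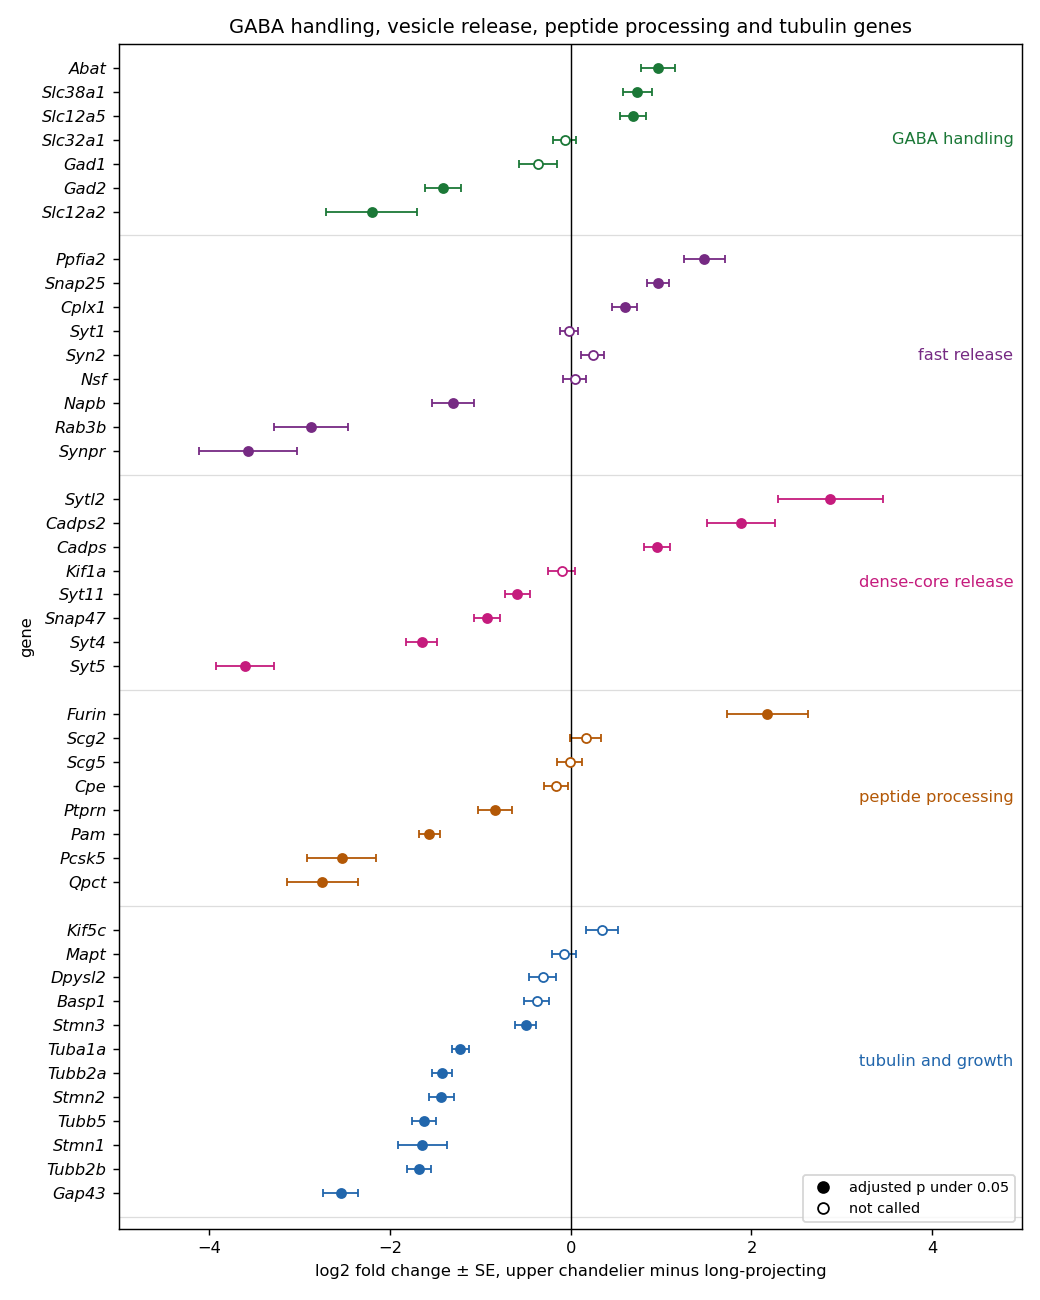
Log2 fold changes (upper chandelier minus long-projecting) with standard errors derived from edgeR's F statistic. Named genes of GABA handling, fast vesicle release, dense-core vesicle release, peptide processing and axonal tubulin and growth are shown. Filled points passed an adjusted p of 0.05 and open points did not. Fast release genes lie on both sides of 0, the GABA breakdown gene Abat to the right, and tubulins and stathmins to the left.

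The list of GABA synthesis and transport also holds chloride and glutamine carriers. Its genes were called in 6 of 11 cases (54.5%), 4 higher in upper chandelier cells and 2 in long-projecting cells. Abat, which breaks GABA down, Slc38a1, which carries glutamine, and Slc12a5, the chloride extruder KCC2, were higher in upper chandelier cells by log2 fold changes of 0.97 ± 0.19, 0.74 ± 0.16 and 0.69 ± 0.14. Gad2, a synthetic enzyme that associates with vesicles, went the other way, at 591, 499, 263, 564 and 305 CPM against 889, 1148 and 1385 CPM (log2 fold change -1.42 ± 0.20, adjusted p = 0.0011). Slc12a2, the chloride importer NKCC1, was higher in long-projecting cells at a low level (8.69 ± 3.99 against 36.6 ± 14.2 CPM, adjusted p = 0.014). Gad1, the other synthetic enzyme, and Slc32a1, the vesicular GABA transporter, were not called, at 2011 ± 85.7 CPM against 2357 ± 532 CPM and 1277 ± 237 CPM against 1232 ± 106 CPM (SD over 2 and 4 animals). Without 3 libraries the counts were 4 and 2, and in the 7-type fit 2 and 1. Abat lost its call without animal 13 (adjusted p = 0.053), Slc38a1 without animal 13 (0.056), Slc12a5 without LPC-6 (0.063) and Slc12a2 without animal 14 (0.077) or without CHC1-2 (0.059).

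The receptors for GABA differed by subunit. Upper chandelier cells had more of 5 of the 18 genes tested and long-projecting cells of 3 (44.4%, and 4 and 2 in the 7-type fit). Gabrd, the delta subunit found in receptors outside synapses, was at 91.5, 131, 241, 158 and 186 CPM against 0, 1.53 and 9.21 CPM (65.5-fold, log2 fold change 5.99 ± 0.64, adjusted p = 0.0002). Gabrb2 was at 382, 317, 133, 146 and 250.3 CPM against 5.91, 19.4 and 73.6 CPM (log2 fold change 3.48 ± 0.51, adjusted p = 0.0014). Neither overlapped. Gabrg3 was called in the same direction (log2 fold change 0.97 ± 0.14). In long-projecting cells the beta 1, gamma 1 and alpha 2 subunits were higher instead, Gabrb1 at 286, 386 and 514 CPM against 134, 112, 127, 141 and 87.5 CPM (log2 fold change -1.89 ± 0.17, adjusted p = 6.8e-05). Gabrg1 and Gabra2 differed by log2 fold changes of -2.99 ± 0.38 and -1.63 ± 0.29. The upper chandelier count was 3 without animal 16.

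Potassium channels set how a neuron repolarizes and how fast it can fire. Of 59 potassium channel and subunit genes tested 15 were higher in upper chandelier cells and 8 in long-projecting cells, 39.0% in all, with 15 and 8 without 3 libraries and 8 and 3 in the 7-type fit. Kcnc1, a Kv3 channel that lets neurons fire fast, was at 382, 287, 652, 349 and 356 CPM against 52.1, 72.4 and 108 CPM (log2 fold change 2.21 ± 0.23, adjusted p = 0.00017). Kcnh7, an ERG-type channel, was 10.4-fold higher (log2 fold change 3.26 ± 0.30, adjusted p = 8.6e-05). The accessory subunits of the large calcium-activated channel split between the types. Kcnmb2 was at 580.2, 912, 521, 709 and 665 CPM against 70.2, 125 and 199.7 CPM (log2 fold change 2.42 ± 0.25, adjusted p = 0.00016), and Kcnmb4 at 5.20, 21.8, 10.9, 11.2 and 5.07 CPM against 140.2, 190.3 and 220.5 CPM (log2 fold change -3.98 ± 0.30, adjusted p = 2.4e-05), both without overlap. Kcnd2 and Kcnc2, among the most abundant members, were not called (1364 ± 282 against 915 ± 114 CPM and 386 ± 94.7 against 373 ± 34.4 CPM). With 1 animal or library left out at a time, the long-projecting count was 5 without library CHC1-2.

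Fgf13, an intracellular partner of sodium channels, was at 167, 179, 205, 246 and 160.3 CPM in upper chandelier libraries against 0, 2.59 and 12.8 CPM (40.3-fold, log2 fold change 5.37 ± 0.65, adjusted p = 0.00042). It separated the types fully. Among sodium channel genes Scn9a was higher in upper chandelier cells (log2 fold change 1.59 ± 0.27), and Scn2a1, Scn3a and the beta subunit Scn3b in long-projecting cells (log2 fold changes -0.77 ± 0.16, -1.53 ± 0.30 and -2.27 ± 0.32). The sodium and HCN list had 4 and 3 of 15 called (46.7%, and 2 and 0 in the 7-type fit). Scn2a1 lost its call without animal 13 (adjusted p = 0.053) and Scn3a with animal 14 split by age (0.063) or without 3 libraries (0.09).

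Of the calcium channel genes 7 of 20 were called higher in long-projecting cells and 3 in upper chandelier cells (50%). Cacna1e, the pore of the R-type channel, was at 14.6, 4.27, 9.82, 24.0 and 5.70 CPM against 183, 280.0 and 363 CPM (27.7-fold, log2 fold change -4.91 ± 0.28, adjusted p = 6e-06). Cacng5, of a family that also accompanies AMPA receptors, had 2.08 CPM in CHC1-1 and none in the other upper chandelier libraries, against 19.8, 57.6 and 97.1 CPM. Among the genes higher in upper chandelier cells were Cacna1g, a low-threshold channel, and the accessory subunit Cacna2d1 (log2 fold changes 1.28 ± 0.26 and 1.57 ± 0.27). Without 3 libraries 5 and 4 were called, and in the 7-type fit 2 and 1. By leave-one-out, the long-projecting count was 4 without library LPC-8. Cacna1g lost its call with animal 14 split by age (adjusted p = 0.069) or without CHC1-4 (0.11).

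Genes listed as calcium- or calmodulin-binding proteins, or as relatives of these by family, were called in both directions. Of 23 tested 4 were higher in upper chandelier cells and 7 in long-projecting cells (47.8%, and 4 and 4 in the 7-type fit). Pvalb, a calcium buffer and a chandelier marker, was at 498, 527, 397, 154 and 418 CPM against 0, 0.436 and 18.0 CPM, and library CHC1-4 was the lowest of the 5. Hpca, the sensor hippocalcin, was at 198, 206, 254, 215 and 174 CPM against 6.90, 14.8 and 62.7 CPM (log2 fold change 3.10 ± 0.45, adjusted p = 0.0013). Pcp4, a small calmodulin-binding protein, was 233-fold higher in long-projecting cells, at 29.1, 1.28, 0, 0.799 and 0.634 CPM against 750.0, 1068 and 1664 CPM (log2 fold change -8.02 ± 0.70, adjusted p = 0.00012). S100a10 stood at 6.24, 0, 0, 0 and 0.634 CPM against 204, 262 and 320.0 CPM (log2 fold change -8.11 ± 0.47, adjusted p = 6e-06), again without overlap. The related Pcp4l1 was higher in upper chandelier cells (log2 fold change 3.43 ± 0.34, adjusted p = 0.00013), opposite to Pcp4. Calb2, a driver gene elsewhere in the series, was at 0.855 ± 0.0764 against 185 ± 121 CPM. The long-projecting count was 4 without animal 14. Calb2 lost its call without animal 13 (adjusted p = 0.056) or without animal 14 (0.076).

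All 4 AMPA receptor subunit genes were called higher in upper chandelier cells, with log2 fold changes of 0.55 ± 0.12 for Gria1, 0.69 ± 0.15 for Gria2, 1.01 ± 0.25 for Gria3 and 1.87 ± 0.14 for Gria4. Gria4 was at 648, 888, 778, 778 and 983 CPM against 157, 197 and 275 CPM (adjusted p = 2.2e-05). Kainate and NMDA subunits were higher in long-projecting cells where they were called. Grik1 was at 153, 187, 120.0, 196 and 158 CPM against 487, 671 and 784 CPM (log2 fold change -2.05 ± 0.15, adjusted p = 2.4e-05) and Grin3a at 14.6, 20.9, 17.5, 28.0 and 13.3 CPM against 108, 197 and 300.0 CPM (log2 fold change -3.48 ± 0.30, adjusted p = 6.2e-05). Gria4, Grik1 and Grin3a did not overlap between types. Grin2a was called in the same direction as Grin3a (log2 fold change -2.52 ± 0.40). Grin2b and Grik2 were not called (366 ± 44.0 against 313 ± 24.2 CPM and 219.9 ± 15.0 against 259 ± 18.0 CPM). The partners also split, the kainate receptor partner Neto2 higher in upper chandelier cells (log2 fold change 1.94 ± 0.30) and the AMPA receptor partner Cnih3 in long-projecting cells (log2 fold change -3.32 ± 0.44). In all 5 and 7 of 23 were called (52.2%), 5 and 8 without 3 libraries and 1 and 3 in the 7-type fit. With 1 animal or library left out at a time, the upper chandelier count was 3 without animal 13 and 3 without library CHC1-2. Gria1 lost its call without animal 13 (adjusted p = 0.13), Gria2 without animal 14 (0.057) or without CHC1-2 (0.077) and Gria3 without animal 13 (0.12), without animal 15 (0.055), without CHC1-2 (0.097) or without LPC-6 (0.084).

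Of the metabotropic receptors 2 of 6 were called higher in upper chandelier cells and 3 in long-projecting cells (83.3%, and 1 and 2 in the 7-type fit). Grm5 was at 473, 426, 401, 565 and 430.3 CPM in upper chandelier libraries and 30.2, 44.0 and 138 CPM in long-projecting libraries (log2 fold change 3.01 ± 0.33, adjusted p = 0.00022). The types were separated without overlap. Grm7 and Grm4 were higher in long-projecting cells (79.2 ± 18.2 against 232 ± 27.2 CPM and 0.151 ± 0.214 against 15.3 ± 4.74 CPM).

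Receptors for peptides let a neuron answer peptides that it or its neighbours release. Of 26 tested 9 were called higher in long-projecting cells and 2 in upper chandelier cells (42.3%), with a median log2 fold change of -1.28. Hcrtr1, Prokr2, Oprk1 and Sstr1 were tested through their counts in long-projecting cells alone and could be called only as higher there. The counts were 10 and 3 without 3 libraries and 3 and 1 in the 7-type fit. Tacr1, Oxtr and Hcrtr1 were among the markers used for the cells. Tacr1, the substance P receptor, was at 234, 117, 69.8, 339 and 98.9 CPM against 684, 799 and 1459 CPM (log2 fold change -2.69 ± 0.19, adjusted p = 1.8e-05), so it was present in every upper chandelier library at a lower level. Oxtr, the oxytocin receptor, was at 1.04, 3.42, 4.36, 4.79 and 0 CPM against 118, 240.0 and 326 CPM (86.4-fold, log2 fold change -6.55 ± 0.43, adjusted p = 1.2e-05).

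Hcrtr1 (the orexin receptor 1), Prokr2 (prokineticin), Oprk1 (kappa opioid) and Sstr1 (somatostatin) had no count in any upper chandelier library. Against the floor of 3 counts they were at least 119-, 33.2-, 25.1- and 20.9-fold higher in long-projecting cells. The last 3 were scarce in long-projecting cells too, with medians of 14.4, 8.76 and 6.22 CPM over libraries. Opioid receptors divided by kind. Oprd1, the delta receptor, was at 39.5, 48.3, 12.0, 63.9 and 43.1 CPM in upper chandelier libraries against 0.436, 1.09 and 4.75 CPM (28.9-fold, log2 fold change 4.66 ± 0.57, adjusted p = 0.00047). Oprl1, the nociceptin receptor, was higher in long-projecting cells (4.76 ± 4.84 against 35.2 ± 7.24 CPM, adjusted p = 0.0099). Oprm1, the mu receptor, was not called (30.4 ± 12.1 against 54.8 ± 34.0 CPM). Vipr2, a VIP receptor and chandelier marker, was at 8.32, 20.9, 13.1, 87.1 and 34.2 CPM against 0, 0 and 6.38 CPM. Sstr1 lost its call without animal 14 (adjusted p = 0.051).

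Among receptors for acetylcholine and monoamines, Chrm2, a muscarinic receptor and long-projecting marker, was at 17.7, 14.1, 15.3, 10.4 and 11.4 CPM against 129.7, 244 and 343 CPM (log2 fold change -4.21 ± 0.27, adjusted p = 1.2e-05). Chrm1 was higher in upper chandelier cells, at 57.2, 71.8, 42.5, 39.1 and 47.5 CPM against 6.79, 14.2 and 26.1 CPM (log2 fold change 1.85 ± 0.35, adjusted p = 0.0051), so the 2 muscarinic receptors differed in opposite directions. Lypd6 and Lypd1, membrane-anchored modulators of nicotinic receptors, were 17.6- and 26.9-fold higher in long-projecting cells. The alpha-1 adrenergic receptors Adra1b and Adra1a were higher there as well (22.8 ± 10.7 against 222 ± 19.5 CPM and 28.5 ± 18.0 against 121 ± 48.1 CPM). Adra1b was at 104 CPM in CHC1-1 and 45.5 CPM in CHC1-4 and at 0 in the other 3 upper chandelier libraries. Mgll, the lipase that ends endocannabinoid signals, was higher in upper chandelier cells (154 ± 12.2 against 33.3 ± 11.7 CPM, log2 fold change 2.09 ± 0.29, adjusted p = 0.00092). Chrm1 lost its call without animal 13 (adjusted p = 0.054) and Adra1a with animal 14 split by age (0.092), without animal 14 (0.067) or without CHC1-3 (0.054).

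Nitric oxide raises cyclic GMP through a soluble cyclase, and cyclic GMP acts on kinases until phosphodiesterases remove it. Of 30 genes of this route 7 were called higher in long-projecting cells and 5 in upper chandelier cells (40.0%, and 4 and 4 in the 7-type fit). Next to Nos1, a driver gene, long-projecting cells had more Dynll1, a light chain that binds the synthase, at 312, 340.4 and 438 CPM against 112, 116, 133, 53.5 and 36.8 CPM (log2 fold change -2.09 ± 0.25, adjusted p = 0.00037). The cyclase subunit Gucy1a3 was 1.61-fold higher (123 ± 5.66 against 199 ± 10.7 CPM, log2 fold change -0.81 ± 0.16, adjusted p = 0.0076) and was at 115 to 149 CPM in upper chandelier libraries.

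Downstream genes were divided between the types. Prkg1, the type I cyclic GMP kinase, was at 428, 447, 522, 639 and 878 CPM in upper chandelier libraries against 75.7, 95.6 and 149.9 CPM (log2 fold change 2.36 ± 0.21, adjusted p = 6.2e-05). Pde5a, a cyclic GMP phosphodiesterase, was at 152, 147, 179, 311 and 207 CPM against 1.31, 6.10 and 7.84 CPM (37.2-fold, log2 fold change 5.12 ± 0.39, adjusted p = 2.8e-05). Pde11a and Pde3a, which split both cyclic nucleotides, were higher in upper chandelier cells too (79.5 ± 19.0 against 3.14 ± 1.63 CPM and 74.9 ± 36.0 against 8.45 ± 3.92 CPM). In long-projecting cells a calcium-activated phosphodiesterase stood out instead, with Pde1a at 39.9, 15.4, 15.3, 7.99 and 13.5 CPM against 559, 904 and 1063 CPM (51.6-fold, log2 fold change -5.83 ± 0.31, adjusted p = 4.9e-06). Its relative Pde1b, named after its values were seen, was higher in upper chandelier cells (61.2 ± 12.8 against 5.10 ± 3.77 CPM, log2 fold change 3.54 ± 0.54, adjusted p = 0.0018). Prkg1, Pde5a and Pde1a each separated all 14 libraries by type.

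**Figure D4:**
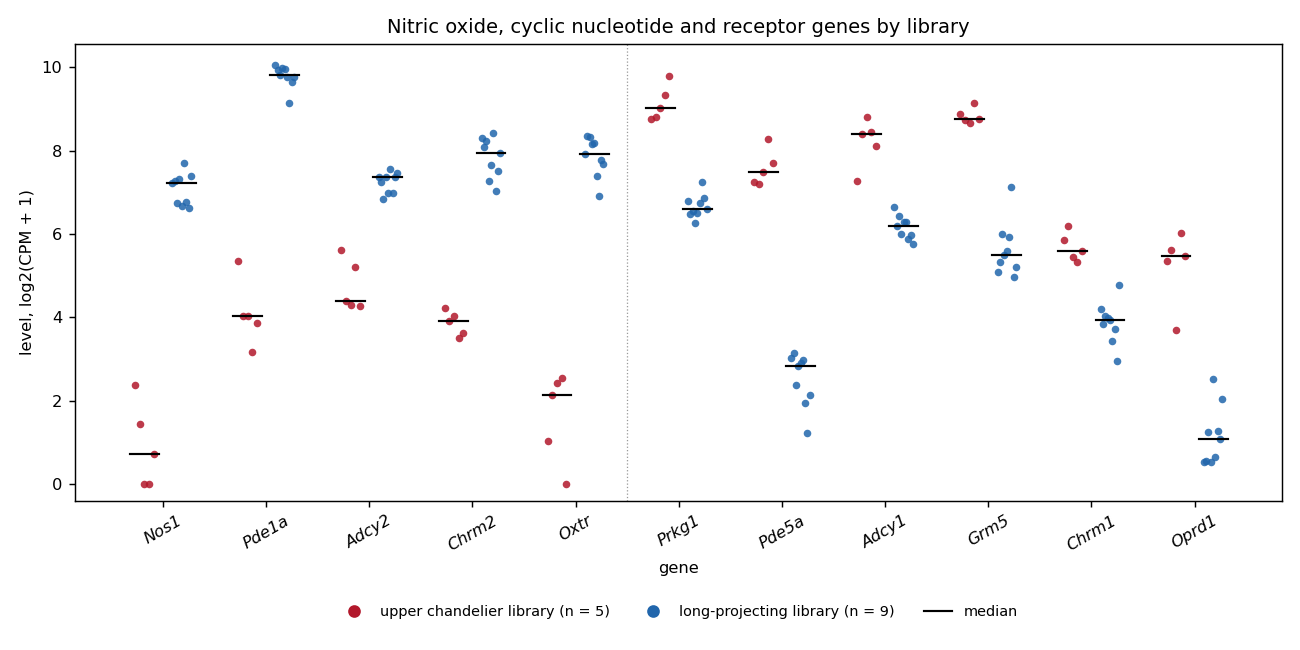
Levels of 11 genes of nitric oxide, cyclic nucleotide and receptor signalling in each upper chandelier and long-projecting library, as log2(CPM + 1), with 1 point per library and a bar at the median. Nos1, Pde1a, Adcy2, Chrm2 and Oxtr are higher in every long-projecting library, and Prkg1, Pde5a, Adcy1, Grm5, Chrm1 and Oprd1 in every upper chandelier library.

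Of 27 cyclic AMP genes tested 7 were called higher in long-projecting cells and 5 in upper chandelier cells (44.4%), but 4 and 0 in the 7-type fit. The calcium-activated cyclases Adcy1 and Adcy8 were higher in upper chandelier cells (313 ± 41.7 against 70.4 ± 11.5 CPM, log2 fold change 2.03 ± 0.18, adjusted p = 7.9e-05, and 155 ± 7.80 against 58.9 ± 10.7 CPM, log2 fold change 1.28 ± 0.21, adjusted p = 0.0026). The cyclases Adcy2 and Adcy5 were higher in long-projecting cells (26.2 ± 2.75 against 156 ± 10.2 CPM, log2 fold change -2.70 ± 0.22, adjusted p = 3.9e-05, and 48.8 ± 12.8 against 117 ± 33.0 CPM, log2 fold change -1.39 ± 0.33, adjusted p = 0.017). The cyclic AMP phosphodiesterase Pde4b was higher in long-projecting cells (log2 fold change -2.94 ± 0.39). Prkar1b, a regulatory subunit of the cyclic AMP kinase, was higher in long-projecting cells (381 ± 50.9 against 792 ± 70.1 CPM, log2 fold change -1.18 ± 0.16, adjusted p = 0.00074). By leave-one-out, the upper chandelier count was 2 without animal 13, 2 without animal 14, 3 without animal 15, 3 without animal 16, 3 without animal 17, 2 without library CHC1-2 and 2 without library LPC-8. Adcy8 lost its call without CHC1-2 (adjusted p = 0.2) and Adcy5 without animal 14 (0.1), without CHC1-5 (0.059) or without 3 libraries (0.055).

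RGS proteins, which shorten signals through G proteins, were called in 56.2% of cases, 7 of 16 higher in upper chandelier cells and 2 in long-projecting cells. Rgs7bp was at 145, 254, 220.3, 382 and 835 CPM against 49.6, 76.1 and 123 CPM (log2 fold change 2.18 ± 0.30, adjusted p = 0.00097) and its partner Rgs7 at 222 ± 19.8 against 113 ± 19.2 CPM (log2 fold change 0.86 ± 0.19, adjusted p = 0.012). Rgs17 and Rgs8 were higher in long-projecting cells (81.6 ± 0.271 against 251 ± 46.8 CPM, log2 fold change -1.74 ± 0.19, adjusted p = 0.00024, and 12.4 ± 2.12 against 94.3 ± 7.97 CPM, log2 fold change -3.05 ± 0.28, adjusted p = 8.5e-05). Without 3 libraries 6 and 3 were called, and in the 7-type fit 2 and 2. The upper chandelier count was 2 without animal 13. Rgs7 lost its call without animal 13 (adjusted p = 0.069) or without CHC1-2 (0.073).

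Adhesion proteins that join the 2 sides of a synapse were higher in upper chandelier cells in most cases where they were called. Of 47 tested 20 were higher there and 2 in long-projecting cells (46.8%, median log2 fold change 0.52). The first count was 15 without 3 libraries and ranged from 12 to 21 over the alternatives other than the 7-type fit, which called 9 and 0. Clstn2, a calsyntenin, was at 764, 1012, 909, 952 and 1711 CPM against 122, 199.7 and 236 CPM (log2 fold change 2.50 ± 0.18, adjusted p = 2.2e-05). Lrrc4c, a netrin-G ligand, was at 313, 218, 207, 205 and 302 CPM against 2.59, 9.78 and 29.6 CPM (21.7-fold, log2 fold change 4.36 ± 0.48, adjusted p = 0.00025). Nlgn1, a neuroligin, was at 594, 401, 471, 453 and 512 CPM against 105, 125 and 179.9 CPM (log2 fold change 1.63 ± 0.14, adjusted p = 6e-05). All 3 separated the types without overlap. With 1 animal or library left out at a time, the upper chandelier count was 12 without animal 13 and 13 without animal 14.

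A pair of neurexins, presynaptic partners of neuroligins, differed in opposite directions. Nrxn3 was higher in upper chandelier cells (2198 ± 193 against 1318 ± 61.7 CPM, log2 fold change 0.62 ± 0.11, adjusted p = 0.0031) and Nrxn2 in long-projecting cells (212 ± 3.70 against 338 ± 8.52 CPM, log2 fold change -0.80 ± 0.14, adjusted p = 0.0044). The other gene higher in long-projecting cells was Cbln2, a cerebellin that binds neurexins, named after its values were seen (10.1 ± 3.31 against 55.3 ± 5.34 CPM, log2 fold change -2.58 ± 0.34, adjusted p = 0.00078). The receptor phosphatase Ptprd and the neurexophilin Nxph1, both abundant, were not called (652 ± 117 against 624 ± 114 CPM and 446 ± 33.8 against 380.2 ± 71.5 CPM).

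Contactins and their partners, which mark domains of the axon surface, were called in both directions. Of 27 tested 8 were higher in upper chandelier cells and 6 in long-projecting cells (51.9%, and 5 and 3 in the 7-type fit). Cntnap2 was at 981, 1217, 1644, 1628 and 1658 CPM against 163, 241 and 327 CPM (log2 fold change 2.47 ± 0.19, adjusted p = 3.1e-05). Cntn5, Cntnap5b and Cntnap5a differed by log2 fold changes of 2.08 ± 0.17, 2.83 ± 0.21 and 1.55 ± 0.21. Among genes higher in long-projecting cells, Ncam2 was at 78.0, 33.8, 75.3, 19.6 and 93.5 CPM against 259, 416 and 539 CPM (log2 fold change -3.08 ± 0.24, adjusted p = 3.2e-05). Dscam, which keeps branches of 1 neuron apart, was at 114, 16.2, 21.8, 4.79 and 15.2 CPM against 172, 312 and 429 CPM (log2 fold change -3.56 ± 0.41, adjusted p = 0.00032), with its highest upper chandelier level in CHC1-1. Ank3, the scaffold of a neuron's own initial segment, was not called (279 ± 3.34 against 254 ± 27.2 CPM), and Nfasc was higher in long-projecting cells (88.7 ± 22.6 against 179 ± 19.4 CPM). Nfasc lost its call with animal 14 split by age (adjusted p = 0.076).

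Cadherins gave 6 of 27 higher in upper chandelier cells and 8 in long-projecting cells (51.9%, and 4 and 5 in the 7-type fit). Pcdh18, a protocadherin, was not counted once in upper chandelier cells and was at 108, 148 and 190.1 CPM in long-projecting libraries, at least 341-fold higher (adjusted p = 4.8e-06). Cdh13 and Pcdh7 were higher there too (log2 fold changes -2.33 ± 0.26 and -2.44 ± 0.23). Cdh12 was at 223, 339.8, 244, 294 and 414 CPM in upper chandelier libraries against 7.44, 19.6 and 90.1 CPM (log2 fold change 3.46 ± 0.52, adjusted p = 0.0016), and Pcdh8 and Pcdh19 differed in the same direction (log2 fold changes 2.47 ± 0.22 and 1.74 ± 0.18).

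Guidance genes were called in 32.2% of cases, near the share of abundant genes, 11 of 59 higher in upper chandelier cells and 8 in long-projecting cells (3 and 3 in the 7-type fit). Unc5b, a netrin receptor and chandelier marker, was at 199.6, 306, 243, 629 and 365 CPM against 0, 0.843 and 12.4 CPM. The ligand showed the reverse, Ntn1 (netrin 1) being at 5.20, 16.7, 6.54, 8.79 and 3.17 CPM against 51.8, 96.1 and 176 CPM (log2 fold change -3.59 ± 0.40, adjusted p = 0.00025). Other netrin receptors, Dcc and Unc5c, were higher in upper chandelier cells (log2 fold changes 1.44 ± 0.33 and 1.42 ± 0.24), as was the Slit receptor Robo2 (log2 fold change 1.71 ± 0.25). Plxna2, a semaphorin receptor subunit, and the ephrin Efna5 were higher in long-projecting cells (log2 fold changes -2.85 ± 0.23 and -2.07 ± 0.47). By leave-one-out, the upper chandelier count was 7 without animal 14 and the long-projecting count was 5 without animal 16 and 4 without library LPC-6. Dcc lost its call without animal 14 (adjusted p = 0.14) or without LPC-8 (0.072) and Efna5 without CHC1-2 (0.058) or without LPC-6 (0.09).

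Genes of the axonal cytoskeleton and its motors were called mainly in 1 direction. Of 37 tested 16 were called higher in long-projecting cells and 1 in upper chandelier cells (45.9%), and the list summed to 25408 CPM in those cells against 14509.7 CPM in the others. The counts were 13 and 3 without 3 libraries and 8 and 1 in the 7-type fit. The 1 gene higher in upper chandelier cells was the kinesin Kif21b, named after its values were seen (119.9 ± 0.321 against 24.6 ± 3.84 CPM).

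Tubulins had the highest levels. Tuba1a was at 3491, 2823, 2802, 3697 and 3055 CPM in upper chandelier libraries and 6073, 6540.0 and 7441 CPM in long-projecting libraries (log2 fold change -1.22 ± 0.10, adjusted p = 3.4e-05). Tubb2a was at 1714, 1492, 1259, 1823 and 1172 CPM and 3157, 3639 and 3997 CPM (log2 fold change -1.42 ± 0.11, adjusted p = 3.4e-05), and Tubb5 at 589, 504, 653, 405 and 320.0 CPM and 1103, 1360.1 and 1587 CPM (log2 fold change -1.63 ± 0.13, adjusted p = 4.3e-05). All 3 lay higher in each long-projecting library than in any upper chandelier library, as did Tubb2b (log2 fold change -1.68 ± 0.14). Tubulin genes are alike in sequence, so reads may have been split among them.

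Gap43, a protein of growing and remodelled axons, was at 438, 220.1, 243, 278 and 151 CPM against 1102, 1231 and 1663 CPM (5.36-fold, log2 fold change -2.55 ± 0.19, adjusted p = 2.4e-05). The stathmins, which free tubulin from microtubules, differed by log2 fold changes of -1.65 ± 0.27 for Stmn1, -1.43 ± 0.14 for Stmn2 and -0.50 ± 0.11 for Stmn3. The dynein heavy chain Dync1h1 was higher in long-projecting cells by less (log2 fold change -0.71 ± 0.13). Basp1, the kinesin Kif5c, Dpysl2 and the tau gene Mapt were not called (887 ± 105 against 1056 ± 103 CPM, 702 ± 56.8 against 506 ± 91.1 CPM, 528 ± 103 against 604 ± 49.4 CPM and 457 ± 31.4 against 444 ± 54.1 CPM). The long-projecting mice were 28 to 29 days old and the upper chandelier mice 40 to 58 days old, and growth-associated genes are known to decline with age in young brain, so age and type cannot be told apart here. Stmn3 lost its call without animal 14 (adjusted p = 0.091), without LPC-7 (0.055) or without 3 libraries (0.06) and Dync1h1 without CHC1-2 (0.14).

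The perineuronal net is a coat of proteoglycans and linkers around some interneurons. Of 17 of its genes tested 8 were called higher in upper chandelier cells and 0 in long-projecting cells in edgeR's test (47.1%). At an unadjusted p under 0.05 the second count was 1, Has3 (a hyaluronan synthase, 0 ± 0 against 5.13 ± 5.13 CPM), and DESeq2 called 1 gene of the list in that direction. Itih5, a hyaluronan-associated protein, was at 142, 106, 27.3, 40.7 and 132 CPM against 0, 2.53 and 10.8 CPM (log2 fold change 4.49 ± 0.42, adjusted p = 9e-05). Adamts15, a protease that cuts net proteoglycans, was at 112, 106, 43.6, 24.0 and 121 CPM against 0, 0 and 4.60 CPM. Its relative Adamts8 was at 60.3, 117, 113, 48.7 and 45.0 CPM against 0, 1.42 and 10.1 CPM. The proteoglycan Bcan (brevican) was at 16.1, 28.0, 24.0, 40.3 and 26.6 CPM against 0, 0.431 and 5.11 CPM (log2 fold change 4.78 ± 0.76, adjusted p = 0.0021). These 4 did not overlap. The link protein Hapln1 was called with a log2 fold change of 2.25 ± 0.41. Cspg5 and Ncan were not called (199 ± 81.3 against 178 ± 13.5 CPM and 51.9 ± 44.3 against 70.4 ± 4.13 CPM). The net matures with age in young cortex, and age and type cannot be told apart. The upper chandelier count was 5 without animal 13, and the 7-type fit called 4 and 1. Adamts15 lost its call by DESeq2 (adjusted p = 0.099).

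Enzymes that modify heparan sulfate, a sugar that binds growth factors and synaptic proteins, differed by isoform within a family. The list also holds enzymes of chondroitin sulfate. Of its 42 genes tested 4 were higher in upper chandelier cells and 8 in long-projecting cells (28.6%, and 2 and 2 in the 7-type fit), near the share of abundant genes. The 3-O-sulfotransferase Hs3st4 was at 201, 217, 378, 521 and 447 CPM against 1.97, 4.82 and 17.8 CPM (51.1-fold, log2 fold change 5.58 ± 0.41, adjusted p = 2.2e-05). Hs3st5 of the same family was at 26.0, 19.2, 26.2, 43.1 and 20.3 CPM against 93.6, 154 and 243 CPM (log2 fold change -2.78 ± 0.35, adjusted p = 0.00054), in the opposite direction. Hs6st3 and Hs3st1 went with Hs3st4 (log2 fold changes 2.99 ± 0.40 and 2.09 ± 0.35), and Ndst4 and Ext1 with Hs3st5 (log2 fold changes -3.48 ± 0.42 and -1.39 ± 0.20). With 1 animal or library left out at a time, the long-projecting count was 4 without library CHC1-2.

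Secreted growth factors and their modifiers were called in 52.9% of cases, 15 of 51 higher in upper chandelier cells and 12 in long-projecting cells (12 and 12 without 3 libraries, 10 and 5 in the 7-type fit). Nrg3, a neuregulin, was at 802, 1084, 1026, 1041 and 1969 CPM against 248, 278 and 391 CPM (log2 fold change 1.92 ± 0.17, adjusted p = 5.6e-05). Fgf9 was at 106, 194, 100.3, 113 and 217 CPM against 2.78, 8.63 and 39.7 CPM (log2 fold change 3.27 ± 0.45, adjusted p = 0.00092). Ptn, which codes for pleiotrophin, was at 18.7, 3.85, 0, 0.799 and 5.07 CPM against 158, 208 and 423 CPM (46.9-fold, log2 fold change -5.70 ± 0.47, adjusted p = 4.3e-05). The Wnt ligand Wnt2 had no count in upper chandelier cells and 22.2, 84.8 and 125 CPM in long-projecting libraries, at least 193-fold higher (adjusted p = 0.00023). Sfrp1, a secreted Wnt antagonist, was higher in the same cells (9.10 ± 9.84 against 165 ± 25.2 CPM, log2 fold change -4.32 ± 0.59, adjusted p = 0.00092). Igfbp4, which binds insulin-like growth factors, was higher in upper chandelier cells (114 ± 7.47 against 4.48 ± 6.50 CPM, log2 fold change 4.73 ± 0.82, adjusted p = 0.0035). By leave-one-out, the upper chandelier count was 8 without animal 14 and 9 without library CHC1-2. Igfbp4 lost its call without LPC-6 (adjusted p = 0.054).

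Transcription regulators keep a neuron's identity, and 18 of 63 listed were higher in upper chandelier cells and 11 in long-projecting cells (46.0%, and 9 and 5 in the 7-type fit). Mef2c, an activity-linked factor, was at 1567, 1835, 1790.0, 1753 and 1752 CPM in upper chandelier libraries, a narrow range, and at 20.5, 49.7 and 184 CPM in long-projecting libraries (25.7-fold, log2 fold change 4.57 ± 0.27, adjusted p = 7.1e-06). Rora was at 723, 1013, 1281, 1074 and 2115 CPM against 25.0, 77.5 and 91.6 CPM (log2 fold change 4.16 ± 0.24, adjusted p = 6.5e-06), and Nfib at 515, 351, 659, 511 and 465 CPM against 4.16, 12.4 and 32.5 CPM (log2 fold change 5.03 ± 0.37, adjusted p = 2.2e-05). Each of the 3 had no overlap between libraries. Thrb, a thyroid hormone receptor, and Tcf4 were called in the same direction (log2 fold changes 3.48 ± 0.28 and 1.15 ± 0.13). Bcl11a and Sox2 were higher in long-projecting cells (28.0 ± 12.9 against 186 ± 39.6 CPM and 80.1 ± 5.69 against 258 ± 36.9 CPM). The upper chandelier count was 11 without animal 14.

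Both types descend from the medial ganglionic eminence, whose regulators were split. Of 16 tested 6 were higher in upper chandelier cells and 4 in long-projecting cells (62.5%, and 3 and 1 in the 7-type fit). The 6 include Nkx2-1, the driver gene of the upper chandelier cells. Zeb2 was at 739, 526, 528, 514 and 836 CPM against 0.863, 11.1 and 40.4 CPM (40.3-fold, log2 fold change 5.26 ± 0.59, adjusted p = 0.00049). Dlx1, Lhx6 and Maf were higher in upper chandelier cells (log2 fold changes 1.54 ± 0.17, 0.83 ± 0.21 and 1.66 ± 0.37). Sox6 and Satb1, both known to act in Sst neurons, were higher in long-projecting cells (163 ± 64.6 against 479 ± 66.1 CPM, log2 fold change -1.67 ± 0.23, adjusted p = 0.00097, and 40.5 ± 16.5 against 241 ± 56.9 CPM, log2 fold change -2.68 ± 0.30, adjusted p = 0.00025), with Elmo1 (log2 fold change -1.39 ± 0.15). Library CHC1-3 overlapped the long-projecting libraries for Sox6. Of 6 caudal eminence genes 2 were called, both higher in upper chandelier cells (33.3%, and 4 in the 7-type fit). Adarb2 was at 1638, 62.0, 60.0, 226 and 57.7 CPM against 33.3, 39.3 and 53.9 CPM, so library CHC1-1 held most of it. Id2 was at 156, 49.2, 42.5, 287 and 100.1 CPM against 0, 2.22 and 15.4 CPM (log2 fold change 4.45 ± 0.67, adjusted p = 0.0016). Lhx6 lost its call without animal 13 (adjusted p = 0.051), without animal 14 (0.11), without CHC1-4 (0.055) or without LPC-6 (0.054), Maf without animal 14 (0.058) or without CHC1-5 (0.052) and Adarb2 without CHC1-1 (0.053).

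**Figure D5:**
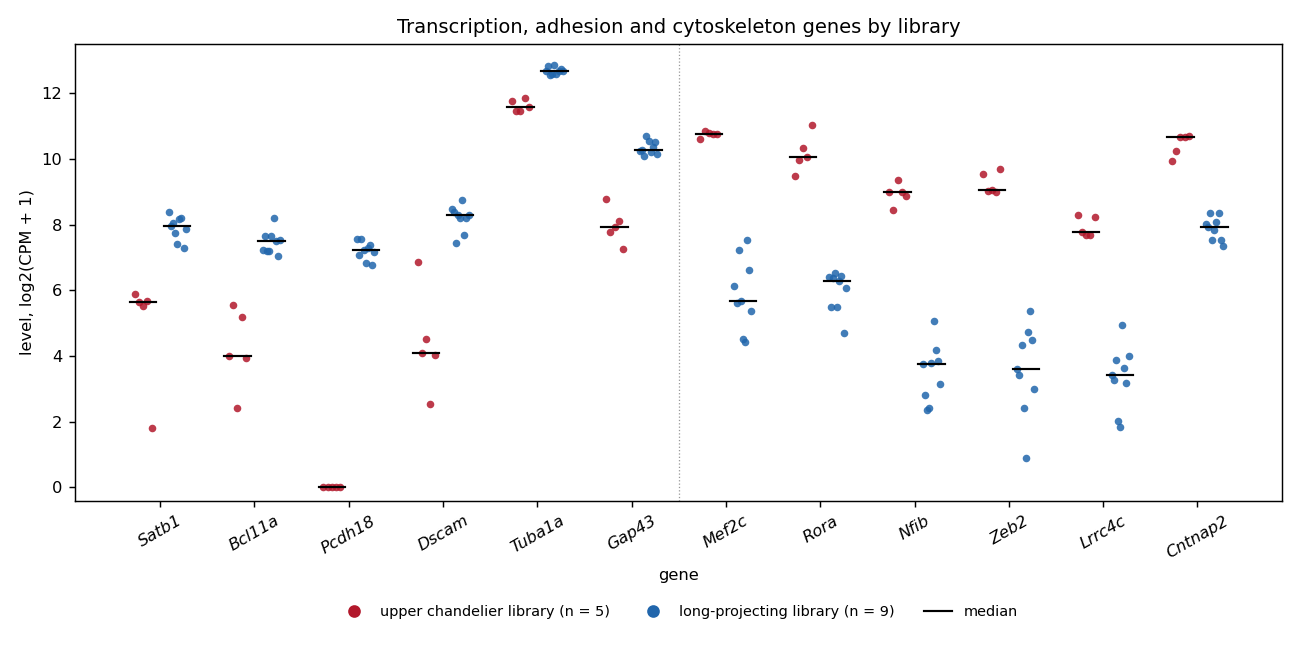
Levels of 12 transcription, adhesion and cytoskeleton genes in each upper chandelier and long-projecting library, as log2(CPM + 1), with 1 point per library and a bar at the median. Mef2c, Rora, Nfib, Zeb2, Lrrc4c and Cntnap2 are higher in every upper chandelier library, and Satb1, Bcl11a, Pcdh18, Dscam, Tuba1a and Gap43 in every long-projecting library.

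The genes with the largest fold changes were taken by a rule, 15 in each direction among 845 with at least 50 CPM in the higher type and no overlap between animals or libraries, so their separation is set by the rule. Besides genes already given, those of upper chandelier cells were Krt12, Ibsp, Cox6a2, Kbtbd5, Zfp804a, Dab1 and Ramp3. Krt12, a keratin, was at 37.4, 74.4, 299, 168 and 107 CPM against at most 0.436 CPM. Ibsp, a bone matrix protein, was at 12.5, 54.7, 201, 43.9 and 265 CPM against at most 0.461 CPM. Both are best known outside the brain, and both were counted in all 5 upper chandelier libraries. Cox6a2, a subunit of the respiratory chain found in muscle, was at 72.8, 57.3, 72.0, 59.9 and 104 CPM against at most 0.57 CPM. Dab1, the adaptor of reelin receptors, was 68.4-fold higher (log2 fold change 6.06 ± 0.41, adjusted p = 1.5e-05). Kbtbd5, a Kelch protein, was at 107 ± 2.37 against 1.01 ± 1.66 CPM, Zfp804a, a zinc finger protein, at 236 ± 84.5 against 3.10 ± 1.42 CPM and Ramp3, a receptor partner, at 75.2 ± 8.73 against 1.60 ± 2.94 CPM. Ramp3 lost its call by DESeq2 (adjusted p = 0.11), without animal 13 (0.054) or without animal 14 (0.053).

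On the long-projecting side Crhbp, the binding protein of corticotropin-releasing hormone, was the most abundant of these genes, at 3494, 5387 and 6285 CPM against 12.5, 39.3, 38.2, 2.40 and 0 CPM (246-fold, log2 fold change -8.08 ± 0.53, adjusted p = 2.8e-05). Chodl, a long-projecting marker, had 1 count in upper chandelier cells and 489, 595 and 724 CPM in long-projecting libraries. Slc7a3, which carries arginine, the substrate of nitric oxide synthase, was at 4.16, 0, 0, 0 and 0 CPM against 344, 557 and 755 CPM (880.5-fold, log2 fold change -9.93 ± 0.57, adjusted p = 6e-06). Slc5a7, the high-affinity choline transporter, had no count in upper chandelier cells and 31.9, 97.8 and 162 CPM in long-projecting libraries, at least 241-fold higher (adjusted p = 0.00015). Tppp3, a tubulin-binding protein, was also without a count in upper chandelier cells and at 16.6, 57.1 and 106 CPM, at least 129-fold higher. Ptpru, Ndrg1 and Bace2 made up the rest, at 43.2 to 142, 14.4 to 76.4 and 36.9 to 97.1 CPM against at most 1.04 CPM each.

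Lane 5 allowed the types to be set side by side within a lane, with 1 library each and so no test. Of all 2299 genes called, 92.7% had the same direction between CHC1-1 and LPC-9. Both libraries were also part of the sums that gave these calls. Genes without overlap between libraries must have that direction, so the agreement was partly set in advance. In that lane Npy was at 117 and 16767 CPM, Penk at 5.20 and 618 CPM, Pthlh at 463 and 0.281 CPM, Mef2c at 1567 and 40.5 CPM and Gap43 at 438 and 1139 CPM, in the order of upper chandelier and long-projecting. Each difference had the direction found over all libraries. Among genes named in the text, 2 of 206 called had the other direction there, namely Dync1h1 and Pde3a.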

How the data were processed

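Single fluorescent neurons were picked and their poly(A) RNA was amplified linearly, with cells pooled into libraries by barcode. The authors deposited 1 table of expected counts per gene and cell (estimated counts, of which 4.07% of values above 0 were not whole); Bowtie 0.12.7 and the mm9 build are named per the submitters' processing notes, with the counting tool not given in the sources used here. Cells were assigned to libraries by the deposited cell list, summed per labelled animal and rounded. All genes passing filterByExpr were fitted with edgeR 4.0.16 (R 4.3.3) by robust quasi-likelihood after TMM scaling, on the 2 upper chandelier and 4 long-projecting animals, without covariates, leaving 4 residual degrees of freedom. Spread between animals of a type, as the common biological coefficient of variation, came to 40.9%. CPM are counts per 1000000 counts of a library, and intervals from counts cover counting error only. A total of 101 genes had rows identical to another gene, and Rn45s took 0.716% of counts. The fitting code was tested on simulated data. Members and lists were chosen with earlier results of these data known. Genes were named by rule: in each direction the 15 largest fold changes among genes called, with at least 50 CPM in the higher type and no overlap between animals or libraries, driver genes, and per list up to 10 called and 4 not called genes with the highest levels; some genes under this rule are not reported here. Alternatives were DESeq2 1.42.0, its size factors, no filter, library sums without and with animal as a random effect (limma 3.58.1), a replicate block, animal 14 split by age, all 7 types in 1 fit, and 1 animal or library left out. Leaving out CHC1-1, CHC1-5 and LPC-2 together was chosen after seeing the data. Promoter letters come from RefSeq (GRCm38.p6).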

Additional observations from a re-analysis of the deposited data

Results flagged for a closer look

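Within a type, a library was marked where it lay so far above or below the others that the gap took up a large part of the range. Of 458 sets of libraries looked at, 1 set for each gene named in the text or marker list in each type, 61 were marked. The cut-off marks about 1 in 20 sets of normally distributed values by chance. Levels in CPM, some with many zeros, need not be so distributed, so the share marked cannot be set against that rate.

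CHC1-1 lay above the other libraries of its type for Adarb2 (1638 CPM against 57.7 to 226), Cadps2 (303 CPM against 28.4 to 81.0), Cnr1 (794 CPM against 0 to 8.79), Dscam (114 CPM against 4.79 to 21.8), Nrxn3 (3447 CPM against 1877 to 2192), Pcdh19 (586 CPM against 338 to 385), Pcp4 (29.1 CPM against 0 to 1.28), Pde1a (39.9 CPM against 7.99 to 15.4), Ptn (18.7 CPM against 0 to 5.07), Synpr (169 CPM against 6.39 to 12.5) and Vip (374 CPM against 0 in the others). The ranges given are those of the other libraries. CHC1-2 lay above the other libraries of its type for Cplx1 (1506 CPM against 959.7 to 1059) and Scn3b (51.3 CPM against 15.2 to 24.0). CHC1-3 lay above the other libraries of its type for Cort (139.6 CPM against 7.19 to 28.1), Hs3st1 (205 CPM against 113 to 122), Kcnc1 (652 CPM against 287 to 382) and Scn9a (548 CPM against 95.7 to 150.2). CHC1-4 lay above the other libraries of its type for Lhx6 (319 CPM against 185 to 209) and Syt4 (221 CPM against 154 to 171). CHC1-5 lay above the other libraries of its type for Clstn2 (1711 CPM against 764 to 1012), Dab1 (814 CPM against 223 to 299.6), Egr4 (332 CPM against 4.16 to 64.1), Fos (3612 CPM against 684 to 1367), Gabrg3 (697 CPM against 548 to 585), Jund (52.6 CPM against 28.8 to 33.8), Nrg3 (1969 CPM against 802 to 1084), Pcdh7 (70.3 CPM against 40.6 to 45.8) and summed immediate early genes (8702 CPM against 1978 to 3221). CHC1-5 lay below the other libraries of its type for Satb1 (2.53 CPM against 44.7 to 58.2). LPC-1 lay above the other libraries of its type for Bcan (5.11 CPM against 0 to 1.42), Mgll (70.4 CPM against 11.8 to 36.1) and summed astrocyte markers (197 CPM against 11.7 to 70.1). LPC-2 lay above the other libraries of its type for Crh (4.61 CPM against 0 in the others), Unc5b (12.4 CPM against 0 to 4.38) and summed oligodendrocyte markers (4467 CPM against 46.1 to 192). LPC-4 lay above the other libraries of its type for Hcrtr1 (109 CPM against 22.7 to 57.4), Kcnmb2 (199.7 CPM against 70.2 to 135) and Vgf (495 CPM against 304 to 392). LPC-6 lay above the other libraries of its type for Bcl11a (297 CPM against 131 to 202), Cdh12 (90.1 CPM against 7.44 to 27.2), Lrrc4c (29.6 CPM against 2.59 to 14.9), Ndst4 (260.0 CPM against 50.3 to 111), Nfib (32.5 CPM against 4.16 to 17.0), Nrg3 (391 CPM against 248 to 319), Oprm1 (135 CPM against 20.4 to 76.0), Ramp3 (10.8 CPM against 0 to 0.922), Sox6 (794 CPM against 298 to 511) and Syt6 (109 CPM against 7.44 to 56.0). LPC-7 lay above the other libraries of its type for Grm5 (138 CPM against 30.2 to 62.5), Hapln1 (15.6 CPM against 3.92 to 9.49), Igfbp4 (27.6 CPM against 0 to 3.42), Kbtbd5 (7.80 CPM against 0 to 1.39), Pcp4l1 (70.9 CPM against 7.03 to 31.5), Slc12a5 (495 CPM against 284 to 389) and Sstr1 (36.1 CPM against 1.38 to 13.9). LPC-7 lay below the other libraries of its type for Ext1 (90.0 CPM against 158 to 222). LPC-8 lay above the other libraries of its type for Adamts15 (4.60 CPM against 0 in the others). LPC-8 lay below the other libraries of its type for Ndrg1 (14.4 CPM against 52.0 to 76.4). LPC-9 lay above the other libraries of its type for Napb (486 CPM against 217 to 343), Oprk1 (35.1 CPM against 1.29 to 13.8) and Pde3a (27.5 CPM against 1.42 to 14.2). No explanation was tested for any of these values.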

How the results depend on the processing

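No alternative turned the direction of a called gene named in the text. Of 206 genes called and named, 123 were called under every alternative run and 156 under all but the fit of all 7 types. That fit called 633 genes, 320 higher in upper chandelier cells and 313 in long-projecting cells, against 2299, 1012 and 1287; the cause was not tested. With 1 animal or library left out, 1639 to 2253 genes were called, 689 to 988 higher in upper chandelier cells and 920 to 1265 in long-projecting cells. Cnr1, found mostly in CHC1-1, was not called (log2 fold change 2.07), but was called in the other direction with animal as a random effect (-3.40), without CHC1-1, CHC1-5 and LPC-2 (-3.37) and without animal 13 (-3.13), and ranged from -3.94 to 3.77 with 1 animal or library left out. Without CHC1-1, CHC1-5 and LPC-2 together 874 and 1107 were called, and with animal 14 split by its 2 labelled ages 884 and 1039. DESeq2 called 1234 and 1771. Library numbers do not pair the types: deviations of the 5 same-numbered pairs correlated by -0.043 to 0.0133, and 1 upper chandelier library was closest to its own number. A fit of library sums with the number as a replicate block called 1600 genes, 650 and 950 in each direction, and was not read as a weaker effect. It called 4 immediate early genes higher in upper chandelier cells. With 2 upper chandelier animals and a floor of 0.426 CPM in that type, precision is limited for small differences and scarce genes.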

Other observations

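Immediate early genes, which are switched on within minutes of strong activity, were higher in upper chandelier cells in 12 of 23 cases and in long-projecting cells in 1. The share called was 56.5%, against 16.4% of all genes tested and 31.0% of genes with at least 50 CPM in the higher type. Fos was at 684, 1016, 969.7, 1367 and 3612 CPM in libraries CHC1-1 to CHC1-5 and at 273, 409.8 and 609 CPM (lowest, median and highest) in the LPC libraries (log2 fold change 1.72 ± 0.32, adjusted p = 0.005). Egr4 was at 4.16, 64.1, 24.0, 59.1 and 332 CPM against 0, 2.16 and 6.79 CPM (log2 fold change 5.08 ± 0.54, adjusted p = 0.00018), and Gadd45g at 112, 85.1, 34.9, 157 and 204 CPM against 14.8, 27.9 and 41.8 CPM (log2 fold change 2.03 ± 0.28, adjusted p = 0.00097). Library CHC1-5 was the highest of the 5 for all 3 genes. The first count was 2 in the fit of all 7 types, 8 without CHC1-1, CHC1-5 and LPC-2, 9 without CHC1-5 and 5 without animal 14, which also ended the call of Fos (adjusted p = 0.064). Jun and Jund of the same family were not called (73.8 ± 53.8 against 105 ± 37.0 CPM and 35.8 ± 4.82 against 24.9 ± 1.31 CPM). The 1 gene of the list higher in long-projecting cells was Klf6 (log2 fold change -2.75 ± 0.46, adjusted p = 0.0027), whose call was lost without CHC1-2 (0.062). The handling of tissue before the cells were picked was not compared between the types.

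Genes of oxidative phosphorylation, the mitochondrial route that makes ATP, summed to 33251 CPM in upper chandelier cells and 31105 CPM in long-projecting cells. Of 77 tested 2 were called higher in the first and 6 in the second, 10.4%. This is below the 16.4% of all genes tested and the 31.0% of genes with at least 50 CPM in the higher type. The fit of all 7 types called 0 and 1. Atp5b and Atp5a1, subunits of the ATP synthase, were not called (1847 ± 20.5 against 1423 ± 25.3 CPM and 1805 ± 85.7 against 1436 ± 44.1 CPM). The count of 6 was 2 without animal 16 or 18 and 3 without animal 13, animal 14 or LPC-7. Cox7a2l was called higher in long-projecting cells (log2 fold change -0.96 ± 0.15, adjusted p = 0.0022), opposite to Cox6a2, and its call was lost with animal 14 split by age (0.32).

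Summed markers of cells other than GABAergic neurons were at most 282 CPM for each cell type in every library except LPC-2. Summed oligodendrocyte markers were at 4467 CPM in LPC-2 and at 46.1 to 192 CPM in the other long-projecting libraries, against 27.0 to 174 CPM in the upper chandelier libraries. Summed astrocyte markers were at 55.7 to 229 CPM over the 5 upper chandelier libraries and 11.7 to 197 CPM over the 9 long-projecting libraries. Microglia markers were at 34.4 to 111 and 70.0 to 110.0 CPM, vascular markers at 117 to 213 and 195 to 282 CPM, and excitatory neuron markers at 109 to 166 and 35.1 to 115 CPM. Camk2a, best known from excitatory neurons, was called higher in upper chandelier cells (68.1, 105, 68.2, 74.3 and 95.4 CPM against 12.0, 24.4 and 49.3 CPM, log2 fold change 1.74 ± 0.30, adjusted p = 0.0036), while Slc17a7, the vesicular glutamate transporter of those neurons, was not (8.14 ± 5.09 against 4.84 ± 1.26 CPM). The genes that follow were named after their values were seen. Aldh1l1, 1 of 9 astrocyte markers tested, was higher in upper chandelier cells (log2 fold change 4.10 ± 1.04), and in long-projecting cells Mbp, 1 of 8 oligodendrocyte markers (-1.57 ± 0.45), and Bsg and Itm2a, 2 of 5 vascular markers (-0.96 ± 0.20 and -5.45 ± 1.40), were higher. Each of these 4 lost its call without animal 14 (adjusted p = 0.055 to 0.27) and in the fit of all 7 types (0.09 to 0.33). The part of other cells in these differences was not tested.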
